A study of Mus musculus with 12 samples.

Results

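The 10 genes described here encode the malate-aspartate shuttle (Got1, Got2, Mdh1, Mdh2, Slc25a11, Slc25a12 and Slc25a13) and the glycerol phosphate shuttle (Gpd1, Gpd1l and Gpd2). They were taken by gene symbol from a table of 56748 mouse genes, and each symbol had 1 row. Rod-TRAP and total retina RNA-seq were compared in control and Pkm2Rodko mice. In TRAP, Cre switches on an HA-tagged ribosomal protein (the RiboTag allele), and mRNA bound to the tagged ribosomes is pulled down with an antibody to HA. These pulled-down mRNAs are called rods, and the RNA taken before the pull-down is called retina.

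All mice carried RiboTag and the i75-Rod-Cre transgene, a rhodopsin-Cre active in rods. Control mice were Pkm2fl/+ and therefore also lack 1 Pkm2 allele in rods, while Pkm2Rodko mice were Pkm2fl/fl. Controls were littermates, and each of the 4 groups (control rods, Pkm2Rodko rods, control retina, Pkm2Rodko retina) had 3 libraries. The deposited description gives an age of 2 weeks, and the methods of the study give 2 months for TRAP. All tissue came from animals perfused with cycloheximide, which holds ribosomes on mRNA, and was flash-frozen. The libraries held 13458890 to 22790074 reads on genes. No source states that each library is 1 animal, so p-values measure the spread between these libraries, which may be partly technical.

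Glycolysis makes NADH in the cytosol, and the inner mitochondrial membrane does not let NADH through. The malate-aspartate shuttle carries its electrons inwards as malate and returns carbon and nitrogen as aspartate, with a malate dehydrogenase and an aspartate aminotransferase on each side of the membrane and 2 exchange carriers in it. The glycerol phosphate shuttle reduces dihydroxyacetone phosphate to glycerol 3-phosphate in the cytosol and oxidises it again on the outer face of the inner membrane, passing the electrons to ubiquinone. Rods run aerobic glycolysis at a high rate, and lactate dehydrogenase is their other large route for reoxidising cytosolic NADH.

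Promoter sequence is shown for 3 of the genes, to set beside their levels: Mdh2 and Slc25a11, which were higher in rods, and Slc25a13, which had almost no reads there. Each is the 250 bases before the RefSeq gene start on GRCm38.p6, 5′ to 3′ on the gene's own strand, which is not the GRCm39 build named in the submitters' processing notes. Capitals mark the motif TCGCGA, the box CCAAT where it stood on either strand and the palindrome known as the E-box, CACGTG. The motifs were chosen after the sequences had been read. TCGCGA and CACGTG each read the same on both strands.
Mdh2, chr5:135778399-135778648, + strand: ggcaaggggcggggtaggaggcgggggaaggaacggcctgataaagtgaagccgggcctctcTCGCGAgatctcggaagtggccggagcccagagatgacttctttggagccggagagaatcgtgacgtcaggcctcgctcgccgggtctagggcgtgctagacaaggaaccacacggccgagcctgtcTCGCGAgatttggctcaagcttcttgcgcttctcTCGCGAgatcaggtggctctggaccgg
Slc25a11, chr11:70647040-70647289, - strand: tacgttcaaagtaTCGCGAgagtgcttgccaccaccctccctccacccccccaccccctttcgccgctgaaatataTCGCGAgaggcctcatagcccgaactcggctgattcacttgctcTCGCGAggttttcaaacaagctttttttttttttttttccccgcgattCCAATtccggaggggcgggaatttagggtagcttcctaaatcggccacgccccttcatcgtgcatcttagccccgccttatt
Slc25a13, chr6:6217174-6217423, - strand: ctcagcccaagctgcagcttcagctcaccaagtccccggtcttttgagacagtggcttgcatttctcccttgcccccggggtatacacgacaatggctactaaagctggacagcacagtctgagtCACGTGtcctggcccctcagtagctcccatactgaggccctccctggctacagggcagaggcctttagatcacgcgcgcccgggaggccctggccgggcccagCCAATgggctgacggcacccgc
RefSeq windows were found for 9 of the 10 genes, Gpd1 being the one without, and Gpd2 had 2 windows. TCGCGA stood in the windows of Mdh2 and Slc25a11, with 3 copies in each, and in no window of the other 7 genes. The window of Slc25a12 does not run on into a GENCODE transcript of that gene, so it may not be its promoter and says nothing of motifs there. Of 32851 windows of the same length, 2.08% held it. CCAAT stood in the windows of 5 of the 9 genes (Got1, Mdh1, Slc25a11, Slc25a13 and Gpd1l) and in 33.8% of all windows. CACGTG stood in those of Slc25a13 and Gpd1l and in 6.02% of all. TAATCC, the core letters bound by the photoreceptor factor CRX, was searched on both strands as well and was in none of the 10 windows, against 6.25% of all. These letters alone identify no binding site.

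The targeted gene was read first as a check of the labels. Pkm, counted without separating its Pkm1 and Pkm2 splice forms, stood at 3690, 3606 and 3895 CPM in control rods and at 1689, 1583 and 1565 CPM in Pkm2Rodko rods, where CPM is reads per 1000000 reads after TMM scaling over the 12 libraries. The groups did not overlap, and the log2 fold change was -1.20 (SE 0.0838, adjusted p = 5.36e-05, limma with Benjamini-Hochberg adjustment over all genes). Rod markers were higher in rods than in retina in control mice for 12 of 12 genes (median log2 difference 1.94). The 10 Müller, 10 amacrine, 10 ganglion, 5 horizontal, 6 pigment epithelium, 6 endothelial and 7 microglia markers were all lower, as were 9 of 10 cone and 8 of 10 bipolar markers. No marker was at 0 in all rod libraries, and the summed Müller markers still stood at 501 to 650 CPM in control rods and 431 to 514 CPM in Pkm2Rodko rods, against 3923 to 4344 CPM in control retina and 3535 to 3838 CPM in Pkm2Rodko retina.

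Rods were compared with retina to ask which shuttle genes the rod ribosomes carry. In control mice 6 of the 7 malate-aspartate genes were higher in rods, by 1.70-fold (Mdh1) to 2.54-fold (Mdh2), and the exception was Slc25a13, one of the 2 aspartate/glutamate carriers. Of the glycerol phosphate genes, Gpd1 and Gpd2 were lower in rods, 10.1-fold and 2.83-fold, while Gpd1l stood at nearly equal levels. All 10 members passed the filter on low values in every comparison. Of them, 6 were higher and 3 lower at an adjusted p under 0.05. Among all 25584 genes tested, 23.5% were higher and 35.5% lower, and 59% passed in either direction. The median log2 difference over the 10 members was 0.82, against -0.37 over all genes tested. Well-read genes lean the other way from that background: of 3469 genes with at least 1000 reads on average, 65.2% were higher and 17.8% lower in rods (median log2 difference 0.48). In bulk RNA, a gene read mostly outside rods cannot be told apart from a gene that rods hold at less RNA per cell. Rods are also ribosome-bound mRNA, while retina is RNA taken before the pull-down. Differences and ratios between them thus join cell type with ribosome binding and the pull-down, which this design cannot separate.

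**Figure D1:**
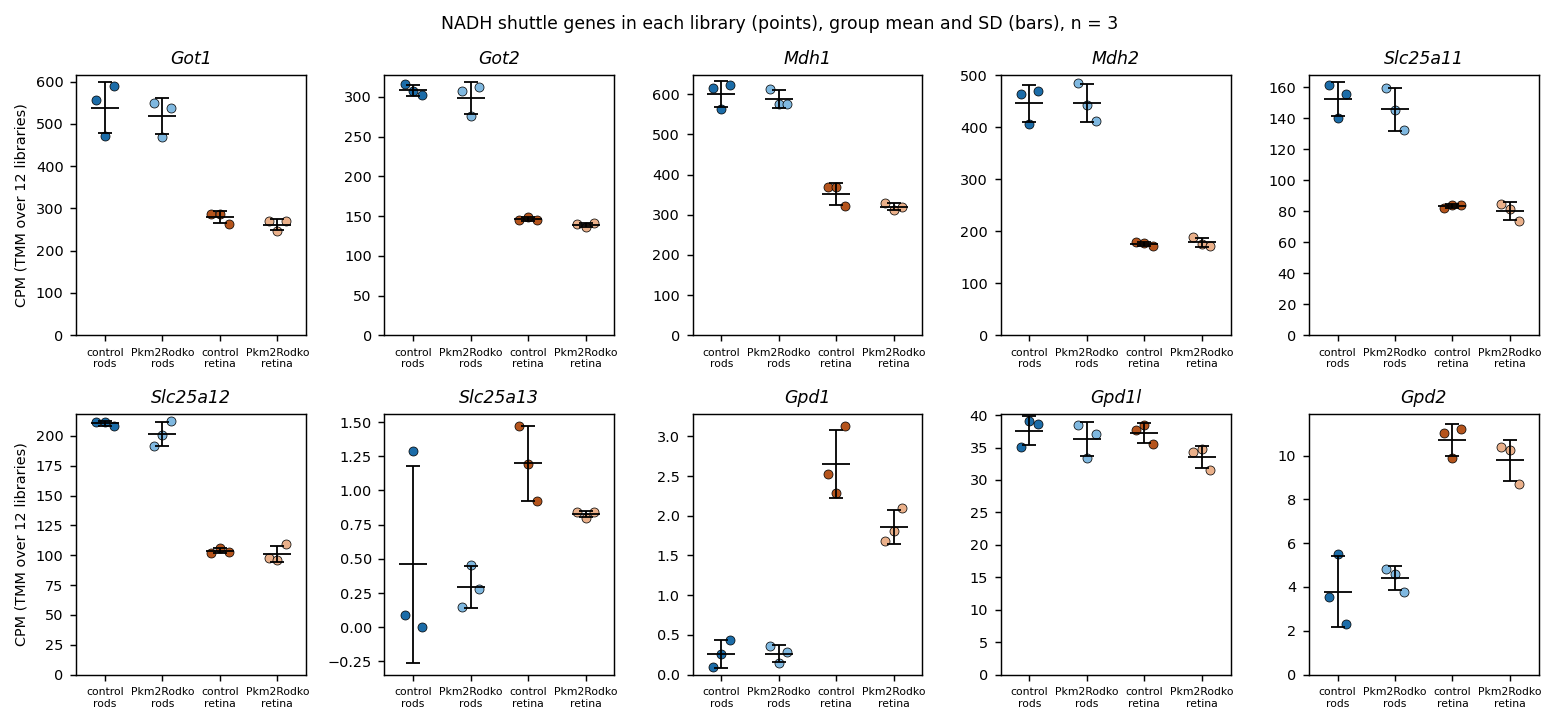
CPM (linear axis, TMM over 12 libraries) of each shuttle gene in each of the 12 libraries (points), with the group mean and SD (bars, n = 3), for control rods, Pkm2Rodko rods, control retina and Pkm2Rodko retina. Got1, Got2, Mdh1, Mdh2, Slc25a11 and Slc25a12 are higher in every rod library than in every retina library, Gpd1 and Gpd2 lower, and Gpd1l level. The SD bar of Slc25a13 in control rods runs below 0 because 1 library holds 25 of the group's 26 reads.

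Among the malate dehydrogenases, Mdh2, the mitochondrial enzyme, was at 464, 405 and 469 CPM in control rods, 485, 442 and 413 CPM in Pkm2Rodko rods, 179, 177 and 172 CPM in control retina and 189, 175 and 172 CPM in Pkm2Rodko retina. Every rod library lay above every retina library. The log2 difference was 1.34 in control mice (95% confidence interval 1.17 to 1.51, adjusted p = 1.09e-09 by limma with Benjamini-Hochberg adjustment) and 1.32 in Pkm2Rodko mice, the largest increase among the members higher in rods in each genotype. Mdh1, the cytosolic enzyme, was at 616, 564 and 623 CPM in control rods, 613, 575 and 576 CPM in Pkm2Rodko rods, 368, 369 and 321 CPM in control retina and 329, 311 and 320 CPM in Pkm2Rodko retina. Its libraries also separated fully by fraction. The log2 difference was 0.77 (0.61 to 0.93, adjusted p = 2.33e-07 by limma) in control and 0.88 in Pkm2Rodko mice, so the interval lay below that of Mdh2.

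The aminotransferases move an amino group between glutamate and oxaloacetate. Got1, the cytosolic form, was at 556, 471 and 589 CPM in control rods, 549, 470 and 538 CPM in Pkm2Rodko rods, 288, 287 and 263 CPM in control retina and 269, 246 and 270 CPM in Pkm2Rodko retina. The second library was the lowest of its group in rods of both genotypes, yet the fractions did not overlap. The log2 difference was 0.94 (0.75 to 1.13, adjusted p = 2.21e-07 by limma) in control and 0.99 in Pkm2Rodko mice. Got2, the mitochondrial form, was at 316, 307 and 302 CPM in control rods, 308, 275 and 313 CPM in Pkm2Rodko rods, 145, 149 and 145 CPM in control retina and 140, 136 and 141 CPM in Pkm2Rodko retina. Rods were again above retina in every library, with a log2 difference of 1.07 (0.93 to 1.21, adjusted p = 1.84e-09 by limma) in control and 1.10 in Pkm2Rodko mice.

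Exchange carriers complete the shuttle. Slc25a11, which exchanges malate for oxoglutarate, was at 162, 140 and 156 CPM in control rods, 160, 145 and 132 CPM in Pkm2Rodko rods, 82.0, 83.8 and 84.2 CPM in control retina and 84.8, 81.4 and 73.5 CPM in Pkm2Rodko retina. Fractions did not overlap, and the log2 difference was 0.87 (0.69 to 1.05, adjusted p = 3.23e-07 by limma) in control and 0.87 in Pkm2Rodko mice. Slc25a11 overlaps Rnf167 on the opposite strand (19362 reads over the 12 libraries, against 23402 for Slc25a11), and the sources used here do not say whether counting used strand, so its reads are uncertain. Mdh1 overlaps Wdpcp, with 2596 reads against 94826.

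Slc25a12 and Slc25a13 both bring glutamate into the matrix in exchange for aspartate. Slc25a12 was at 211, 212 and 208 CPM in control rods, 192, 200 and 213 CPM in Pkm2Rodko rods, 102, 106 and 103 CPM in control retina and 97.7, 96.3 and 109 CPM in Pkm2Rodko retina. The fractions did not overlap, and the log2 difference was 1.02 (0.87 to 1.17, adjusted p = 5.56e-09 by limma) in control and 0.997 in Pkm2Rodko mice. Slc25a13 was read 1, 25 and 0 times in control rods, 2, 6 and 5 times in Pkm2Rodko rods, 32, 24 and 23 times in control retina and 17, 19 and 16 times in Pkm2Rodko retina. The second control rod library held nearly all reads of its group and reached into the range of the control retina in CPM. The library with 0 reads allows up to 0.264 CPM, the value of 3 reads there.

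For Slc25a13 the log2 difference was -2.48 (-4.22 to -0.73, adjusted p = 0.0167 by limma) in control mice and -1.45 (-3.19 to 0.30, adjusted p = 0.143) in Pkm2Rodko mice. The ratio of mean CPM was smaller, 2.61-fold higher in retina in control mice. The control call was lost with edgeR's quasi-likelihood test (log2 difference -1.10, adjusted p = 0.147). It was also lost without control rod library 1 (-2.18, adjusted p = 0.060), control rod library 3 (-1.48, adjusted p = 0.0988) or control retina library 1 (-2.31, adjusted p = 0.0570). Without control rod library 2 it was -3.78 (adjusted p = 2.67e-05), and the Pkm2Rodko difference then passed as well (-1.45, adjusted p = 0.0171), as it did under scaling by total reads (-1.95, adjusted p = 0.0433). Summed over libraries, 26 reads in control rods against 79 in control retina give a retina-to-rod ratio of 1.90 (95% exact interval 1.21 to 3.09). In Pkm2Rodko mice 13 reads against 52 give 2.86 (1.54 to 5.73). Intervals from summed reads cover counting error only.

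The glycerol phosphate shuttle did not share the pattern of the 6 higher genes. Gpd1, the cytosolic glycerol-3-phosphate dehydrogenase, had 1, 5 and 5 reads in control rods, 5, 2 and 5 reads in Pkm2Rodko rods, 55, 46 and 78 reads in control retina and 34, 43 and 40 reads in Pkm2Rodko retina. As levels these were 0.0907, 0.258 and 0.440 CPM in control rods and 2.53, 2.29 and 3.13 CPM in control retina, with no overlap. The log2 difference was -3.25 (-4.22 to -2.28, adjusted p = 1.59e-05 by limma) in control and -2.64 (adjusted p = 1.16e-04) in Pkm2Rodko mice. From summed reads the retina-to-rod ratio was 10.2 (95% exact interval 5.56 to 20.8) in control and 6.98 (3.85 to 13.9) in Pkm2Rodko mice. The median marker differences of all listed cell types but rods had the same direction in control mice. These log2 differences were -2.91 (Müller), -3.13 (bipolar), -2.85 (amacrine), -3.02 (ganglion), -3.14 (horizontal), -3.11 (microglia), -2.90 (endothelial), -2.36 (pigment epithelium) and -0.70 (cone). The part of these cells in the result was not tested.

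Gpd1l encodes a second cytosolic enzyme of the same reaction and was the only member whose fractions overlapped in both genotypes. It was at 35.1, 39.1 and 38.7 CPM in control rods, 38.4, 33.3 and 37.1 CPM in Pkm2Rodko rods, 37.7, 38.4 and 35.5 CPM in control retina and 34.3, 34.7 and 31.6 CPM in Pkm2Rodko retina. Its log2 difference was 0.015 (-0.17 to 0.20, adjusted p = 0.899 by limma) in control and 0.11 (-0.076 to 0.30, adjusted p = 0.291) in Pkm2Rodko mice. Gpd2, the mitochondrial enzyme that hands electrons to ubiquinone, was at 3.54, 5.51 and 2.29 CPM in control rods, 4.83, 4.59 and 3.79 CPM in Pkm2Rodko rods, 11.1, 9.87 and 11.2 CPM in control retina and 10.4, 10.2 and 8.71 CPM in Pkm2Rodko retina. Control rods varied most, but rods and retina did not overlap in either genotype. The log2 difference was -1.57 (-2.09 to -1.06, adjusted p = 3.67e-05 by limma) in control and -1.15 (adjusted p = 6.73e-04) in Pkm2Rodko mice.

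In Pkm2Rodko mice the same 6 genes were higher in rods and Gpd1 and Gpd2 were lower, 6 and 2 of 10, where 23.9% of all genes were higher and 35.1% lower. Rods and retina did not overlap for 8 of 10 members in control mice (61.8% of all genes tested) and for 9 of 10 in Pkm2Rodko mice (63%). Bringing both fractions to a common scale is a choice that sets the size of these differences. TMM factors were 0.809 to 0.851 in rods and 1.20 to 1.24 in retina, and scaling by total reads moved the median of all genes from -0.37 to -0.76 in control mice. The split of all genes then became 2184 higher and 12706 lower, in place of 6001 and 9083. Under total reads the 6 higher genes remained higher at an adjusted p under 0.05, with log2 differences of 0.22 (Mdh1), 0.32 (Slc25a11), 0.39 (Got1), 0.47 (Slc25a12), 0.52 (Got2) and 0.79 (Mdh2) in control mice by limma. Gpd1l became lower in rods, by -0.53 in control (adjusted p = 9.54e-05) and -0.47 in Pkm2Rodko mice (adjusted p = 2.99e-04).

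**Figure D2:**
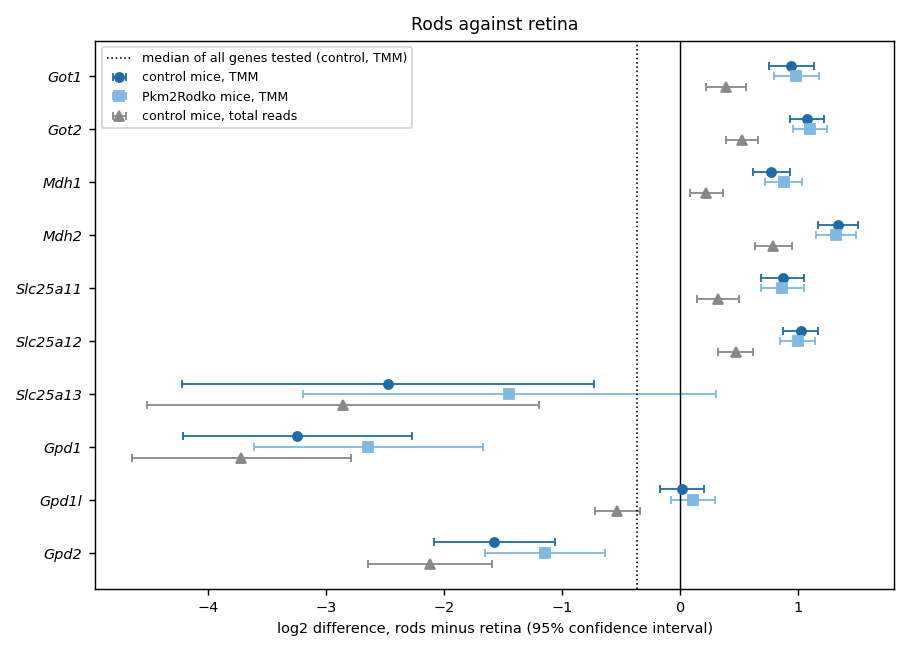
Log2 difference of rods minus retina for each shuttle gene with its 95% confidence interval, in control mice (circles) and Pkm2Rodko mice (squares) under TMM scaling, and in control mice scaled by total reads (triangles). The dotted line is the median of all genes tested, -0.37. Got1, Got2, Mdh1, Mdh2, Slc25a11 and Slc25a12 lie above 0 under both scalings, Gpd1 and Gpd2 below 0, and Gpd1l moves from 0.015 to -0.53.

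Per kilobase of exon (RPKM), the order of levels in control rods was Mdh1 at 234 ± 12.5 (SD, n = 3), Got1 at 212 ± 23.9, Mdh2 at 125 ± 9.98, Slc25a11 at 71.9 ± 5.27, Got2 at 63.9 ± 1.43, Slc25a12 at 28.7 ± 0.248, Gpd1l at 7.41 ± 0.430, Gpd2 at 0.577 ± 0.248, Slc25a13 at 0.121 ± 0.189 and Gpd1 at 0.0888 ± 0.0591. The libraries of Mdh1 and Got1 overlapped, as did those of Slc25a13 and Gpd1, and all other neighbours were apart. Mdh1 stood at the 99.4th percentile of tested genes with a known length in control rods, Slc25a12 at the 92.8th, Gpd1l at the 77.3rd, Gpd2 at the 48.5th and Gpd1 at the 29.6th. Control retina had the same order except that Gpd1 (0.896 RPKM) stood above Slc25a13 (0.315 RPKM), and no neighbours overlapped. Among the cytosolic enzymes that begin each shuttle, Mdh1 and Gpd1l were at 234 and 7.41 RPKM in control rods and at 137 and 7.33 RPKM in control retina.

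Ratios between members inside a library do not depend on the scaling. They were taken per kilobase with 0.5 reads added, and rods were tested against retina by a two-sided exact permutation test within genotype (400 arrangements, smallest possible p = 0.005), adjusted over the 5 ratios. Mdh1/Mdh2, the cytosolic over the mitochondrial dehydrogenase, was 1.84, 1.93 and 1.84 in control rods, 1.75, 1.803 and 1.94 in Pkm2Rodko rods, 2.86, 2.89 and 2.59 in control retina and 2.42, 2.46 and 2.58 in Pkm2Rodko retina. All rod libraries were below all retina libraries, and the log2 ratio was lower in rods by -0.51 (exact permutation p = 0.005, adjusted p = 0.00625). Got1/Got2 was 3.34, 2.92 and 3.70 in control rods, 3.38, 3.24 and 3.27 in Pkm2Rodko rods, 3.76, 3.65 and 3.45 in control retina and 3.67, 3.43 and 3.63 in Pkm2Rodko retina. Control rods and retina overlapped, the log2 difference was only -0.12 (exact permutation p = 0.035, adjusted p = 0.035), and it did not pass when any 1 of 8 of the 12 libraries was left out. These 8 were control rods 1 and 2, Pkm2Rodko rods 2 and 3, control retina 1 and 2, and Pkm2Rodko retina 1 and 3, without which the adjusted exact permutation p lay between 0.050 and 0.10. Rods and retina of the same number deviate together, and a two-sided exact test that flips signs within the 6 pairs, added after the data were seen, gave p = 0.0938 (adjusted p = 0.0938) for Got1/Got2, which was lower in rods in 5 of 6 pairs. Its call was lost there, while Mdh1/Mdh2 and the other 3 ratios each gave an exact p = 0.0312, the smallest that 6 pairs allow (adjusted p = 0.0391, 6 of 6 pairs in 1 direction).

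Gpd1/Gpd1l was 0.00664, 0.0124 and 0.0215 in control rods, 0.0177, 0.00967 and 0.0142 in Pkm2Rodko rods, 0.116, 0.103 and 0.152 in control retina and 0.0851, 0.0905 and 0.115 in Pkm2Rodko retina. Of the 2 cytosolic enzymes, Gpd1l thus made up most of the mRNA in both fractions. In rods it was almost all, where Gpd1 had only 1 to 5 reads in each library. The log2 ratio differed by -3.09 between fractions (exact permutation p = 0.005, adjusted p = 0.00625). Gpd2 over the sum of Gpd1 and Gpd1l was 0.0785, 0.109 and 0.0458 in control rods, 0.0964, 0.106 and 0.0787 in Pkm2Rodko rods, 0.204, 0.181 and 0.213 in control retina and 0.217, 0.210 and 0.192 in Pkm2Rodko retina. The fractions did not overlap, with a log2 difference of -1.30 (exact permutation p = 0.005, adjusted p = 0.00625). Slc25a12/Slc25a13 ran from 83.4 to 2448 in control rods and from 212 to 551 in Pkm2Rodko rods, against 35.3 to 56.3 in control retina and 58.5 to 65.2 in Pkm2Rodko retina. The log2 difference was 3.06 (exact permutation p = 0.005, adjusted p = 0.00625), and its size rests on the few Slc25a13 reads.

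**Figure D3:**
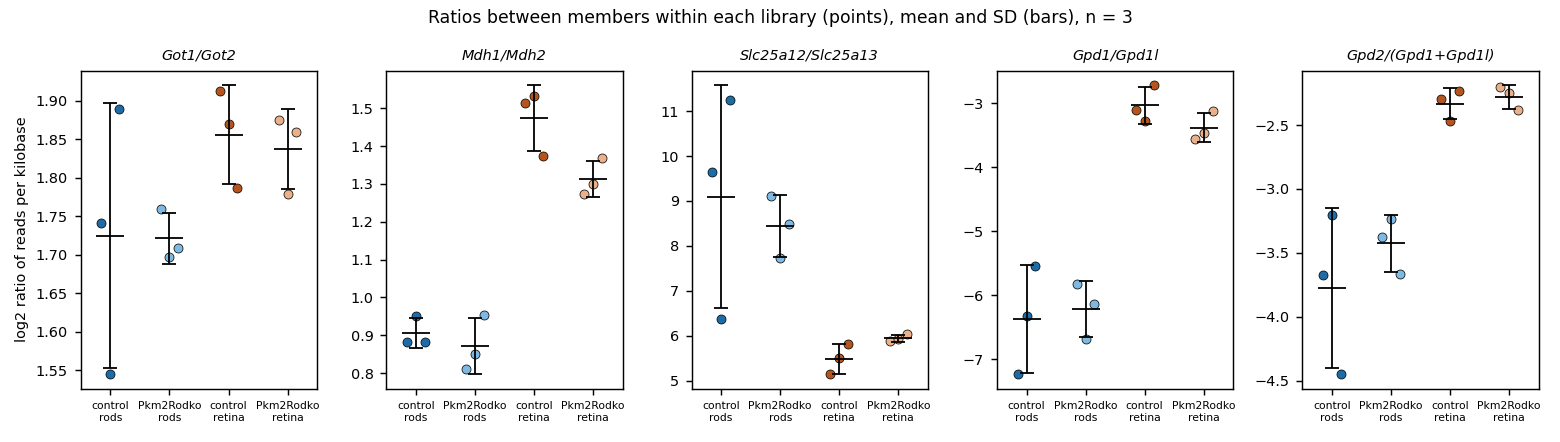
Log2 ratio of reads per kilobase between members of the shuttles within each library (points), with the group mean and SD (bars, n = 3); the vertical scales differ and do not start at 0. Rod libraries lie apart from retina libraries for Mdh1/Mdh2, Slc25a12/Slc25a13, Gpd1/Gpd1l and Gpd2/(Gpd1+Gpd1l), and overlap in control mice for Got1/Got2.

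Genotypes were compared within each fraction to ask whether loss of Pkm2 in rods moved the shuttle mRNAs. None of the 10 members passed in rods, where 4 of 20658 genes did (0.0194%). Their adjusted p-values were 0.932 to 0.991 by limma, and 986 genes had an unadjusted p under 0.05, none of them a member. For Got1, Got2, Mdh1, Mdh2, Slc25a11, Slc25a12 and Gpd1l the log2 fold change of Pkm2Rodko over control rods lay between -0.058 (Slc25a11) and 0.011 (Mdh2). Their 95% intervals ran from -0.28 (Gpd1l, lowest bound) to 0.20 (Mdh2, highest bound). The low genes were measured far less closely, with intervals of -0.33 to 0.95 for Gpd2, -1.18 to 1.38 for Gpd1 and -1.50 to 2.38 for Slc25a13. The Slc25a13 value itself was 0.44 by limma and -0.84 by edgeR, with group means of 0.460 CPM in control and 0.291 CPM in Pkm2Rodko rods, so its direction is not settled. Genotypes overlapped in rods for 10 of 10 members, where 9.89% of all genes tested did not. The summed markers of 2 of 10 cell types were lower in every Pkm2Rodko rod library than in every control one, and 0 were higher. These were amacrine (113 to 135.64 against 135.67 to 193 CPM) and endothelial cells (16.4 to 23.0 against 23.6 to 32.8 CPM). Median log2 fold changes in rods were -0.35 for Müller, -0.45 for bipolar, -0.49 for amacrine and -0.40 for ganglion markers. They were -0.28 for endothelial, -0.17 for horizontal, -0.13 for microglia, -0.11 for cone and -0.084 for pigment epithelium markers. For rod markers the median was 0.051. Whether this bears on the low genes was not tested.

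In retina none of the 10 passed either, where 1 of 25590 genes did (0.00391%), with adjusted p-values of 0.947 to 0.982 by limma and 1069 genes at an unadjusted p under 0.05, none of them a member. Of the log2 fold changes 9 were negative, from -0.022 (Slc25a12) to -0.48 (Gpd1), and that of Mdh2 was 0.038. Every interval included 0, and the median was -0.097 over the members, against -0.0045 over all genes tested. Pkm2Rodko libraries lay below all control libraries for 3 members, Slc25a13, Gpd1 and Gpd1l, and the genotypes did not overlap for 9.29% of all genes tested. The closest to the threshold was Gpd1, at 1.68, 1.81 and 2.10 CPM against 2.53, 2.29 and 3.13 CPM (log2 fold change -0.48, interval -0.99 to 0.033, adjusted p = 0.947). The summed markers of 3 of 10 cell types were also lower in every Pkm2Rodko retina library than in every control one. These were Müller cells (the ranges given above), cones (1042 to 1094 against 1167 to 1272 CPM) and bipolar cells (1044 to 1264 against 1265 to 1336 CPM). Their part in these values was not tested.

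The genotype effect in rods did not pass the test of a difference from that in retina for any member (adjusted p at least 0.978 by limma). Of all 25584 genes 0 passed in this test (0%), also by edgeR, and 1128 had an unadjusted p under 0.05. Pkm, the targeted gene, was thus not called either, although its difference between effects was -0.54 (SE 0.103). Members that did not pass are therefore not shown to have equal genotype effects in rods and retina. The differences between effects ran from -0.025 (Slc25a12) to 0.11 (Mdh1) for the 7 well-read members, and were less closely measured for the low genes. They were 0.43 for Gpd2 (0.12 to 0.76 over the alternatives), 0.60 for Gpd1 (0.11 to 1.01) and 1.03 for Slc25a13. The last has no settled direction: edgeR gave -0.42, and values with 1 library left out ran from 0.022 to 2.33.

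**Figure D4:**
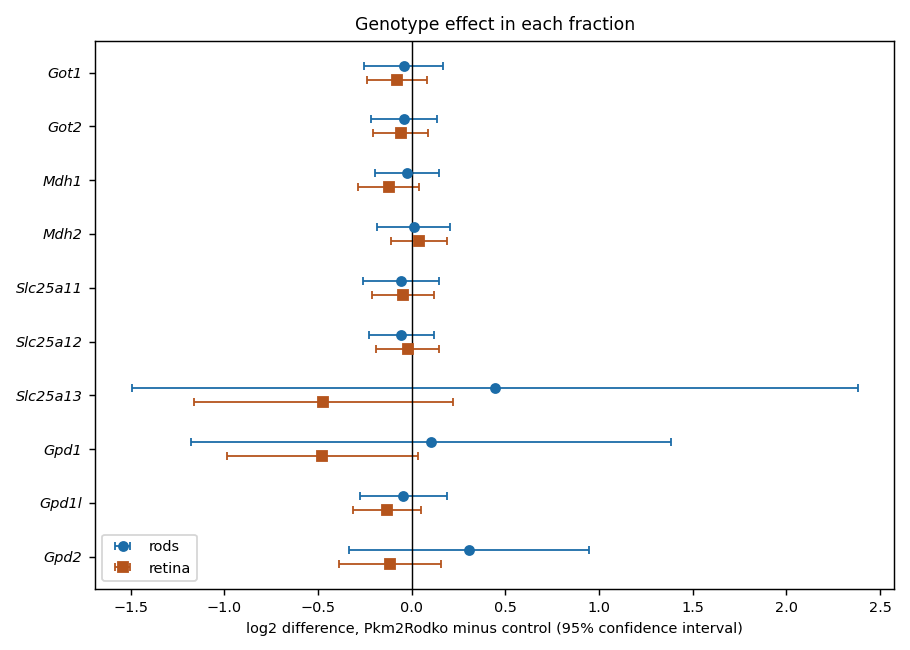
Log2 fold change of Pkm2Rodko over control for each shuttle gene with its 95% confidence interval, in rods (circles) and retina (squares), on the log2(value + 1) scale. All intervals include 0, and those of Slc25a13 and Gpd1 are the widest.

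The reactions beside the shuttles were mixed. Of 26 genes for aspartate, glutamate and malate reactions (28 listed, 2 symbols not matched), 11 were higher and 13 lower in control rods than in retina (median log2 difference -0.29, all genes -0.37). Among all genes tested, 23.5% were higher and 35.5% lower. The highest was Mdh1b, a malate dehydrogenase relative, at 0.815 CPM in rods against 0.249 CPM in retina (log2 difference 1.46, adjusted p = 0.0200 by limma). Mdh1b was hardly read in either fraction (SD 0.424 CPM in control rods), so the size of its log2 difference depends on the 1 added. Next was Asl, argininosuccinate lyase, at 39.0 against 16.4 CPM (1.25, adjusted p = 7.60e-08 by limma). The lowest were Slc25a1, the citrate carrier, at 1.17 against 11.5 CPM (-3.29), and Me3, a mitochondrial malic enzyme, at 0.880 against 8.85 CPM (-3.25). Slc1a3 and Glul in this list are Müller markers too. In Pkm2Rodko mice the counts were again 11 and 13.

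Of 17 entries for glycerol phosphate and its entry into lipid (Aldoa has 2 identifiers), 10 were higher and 6 lower in control rods (median 0.34). Agpat3, an acyltransferase that makes phosphatidic acid from lysophosphatidic acid, was at 4745 ± 233 CPM in rods and 1506 ± 94.6 CPM in retina (SD, n = 3, log2 difference 1.66, adjusted p = 2.51e-10 by limma), and Agpat5 at 246 against 102 CPM (1.27). Agpat2 and Agpat4 of the same family were lower, at 0.0596 against 2.37 CPM (-4.40) and 1.003 against 8.87 CPM (-3.08). Agpat2 was hardly read in control rods (SD 0.0516 CPM), so the size of its log2 difference depends on the 1 added. Of 20 entries for NADH producers and users and NAD supply, 8 were higher and 4 lower (median 0.34). Beside both lists stand 23.5% higher and 35.5% lower among all genes tested (median -0.37). Among genes with at least 1000 reads on average, 65.2% were higher and 17.8% lower (median 0.48). Both lists also hold genes read far less, such as Agpat2 and Naprt, so their medians cannot be set against that of well-read genes. Ldha, the lactate dehydrogenase subunit that regenerates cytosolic NAD, was at 2585 ± 124 CPM in rods and 884 ± 99.4 CPM in retina (1.55, adjusted p = 5.98e-10 by limma), and Ndufv1, the complex I subunit that binds NADH, at 259 against 109 CPM (1.24). Nmnat2, a neuronal NAD synthesis enzyme, was at 5.96 against 43.7 CPM (-2.87) and Naprt at 0.228 against 1.39 CPM (-2.71). Naprt was also hardly read in control rods (SD 0.274 CPM), with the same limit. No gene of the 3 lists passed in a genotype comparison in rods or in retina.

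**Figure D5:**
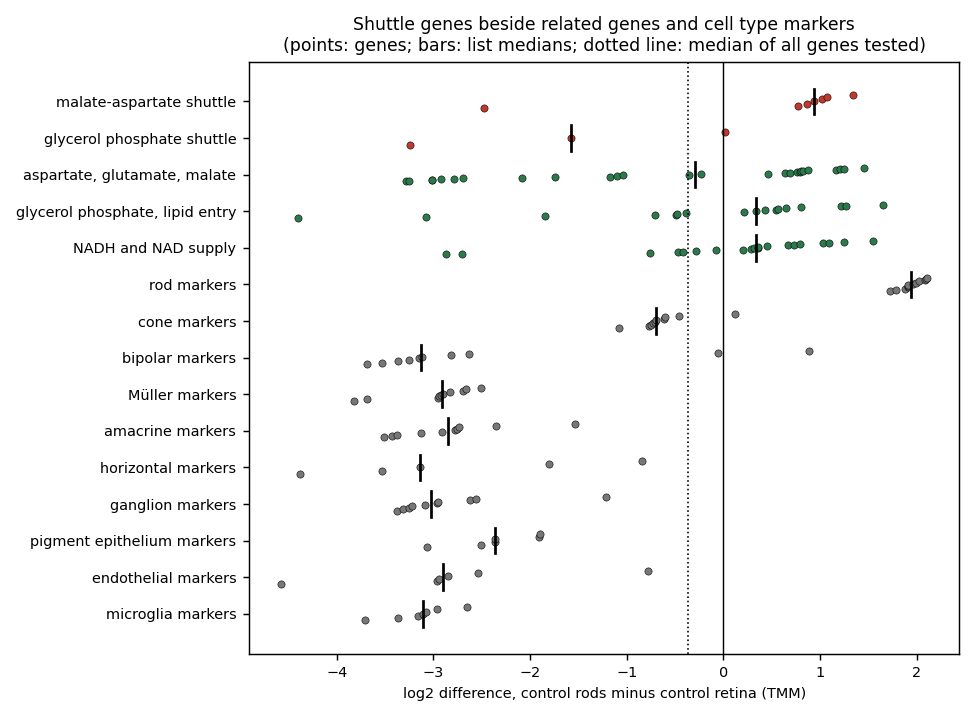
Log2 difference of control rods minus control retina (TMM) for each gene (points) of the shuttles, of 3 lists of related reactions and of 10 lists of cell type markers, with list medians (bars) and the median of all genes tested (dotted line, -0.37). Got1, Got2, Mdh1, Mdh2, Slc25a11 and Slc25a12 lie between all-gene background and the rod markers (median 1.94), and Gpd1 lies among the markers of other cells.

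The genes with profiles most like that of Mdh2 over the 12 libraries, by root mean square distance of centred log2 levels among 11264 candidates, were Gm13292 (0.0414), Gm3839 (0.0432) and Gm13394 (0.0432), all predicted genes. Those most like Gpd1 were Chrdl1 (0.283), Anxa5 (0.288) and E130114P18Rik (0.291), at distances several times larger. Gpd1 had only 1 to 5 reads in each rod library, so its distances cannot be set against those of Mdh2.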

How the data were processed

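Per the labels, polyA RNA of rods and retina was sequenced, and the submitters' processing notes name CASAVA 1.8.2, HISAT2, DESeq2, edgeR and GRCm39. The counter, annotation and strand are not given in the sources used here. The authors deposited 1 signal per gene and library. These values are reads over a library's median-of-ratios size factor, made separately for rods and retina. Of the positive values, 99.9996% were whole reads (tolerance 0.051), so reads were recovered.

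Genotypes were compared by limma 3.58.1 (R 4.3.3, variance trend) on log2(value + 1), for genes with a mean of at least 1 in 1 genotype. Rods and retina were compared on log2(reads + 1) scaled by TMM (edgeR 4.0.16), in 1 fit of 12 libraries. Fold changes of low genes depend on the 1 added. P-values were adjusted by Benjamini-Hochberg over all genes at 0.05. Fits were tested on simulated data in which only genes read more than Slc25a13 and Gpd1 were changed and libraries were independent. The simulation thus says nothing of these genes or of libraries that pair. RPKM used GENCODE vM21 exon lengths, found for 96.3% of tested genes. Rods and retina of the same genotype and number deviated together (r 0.294 to 0.587 over 11137 genes), so the numbers pair them, from the data and not the labels.

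The members and lists were chosen with earlier results of these data known. All 10 members, Pkm, the 2 highest and 2 lowest genes of each list past 0.05, any list gene past 0.05 between genotypes and the 3 nearest profiles to the highest and lowest member were named. Alternatives included DESeq2 1.42.0, edgeR, other scalings, filters and pseudocounts, a replicate block and each library left out.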

Additional observations from a re-analysis of the deposited data

How the results depend on the processing

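Got1, Got2, Mdh1, Mdh2, Slc25a11, Slc25a12 and Gpd2 kept their direction and their call between rods and retina in both genotypes under 19 alternatives, and Gpd1 under the 18 that tested it. Scaling by total reads turned Gpd1l to -0.53 in control and -0.47 in Pkm2Rodko mice. It gave 2184 and 2198 higher genes in control and Pkm2Rodko mice, and 4 members lower in each genotype. This follows from the shift of the whole scale. A minimum of 10 reads in every library left out Slc25a13 and Gpd1, so that 1 member was called lower in each genotype, with 3614 and 3586 genes lower. Log2 differences with each library left out ran from -0.16 to -0.079 for Got1/Got2, and the replicate block by pairs of rods and retina left its difference at -0.12 but not its call (adjusted exact permutation p = 0.0938).

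No member that was tested was called between genotypes under the alternatives. There were 15 in each fraction, but in rods only 13 gave an adjusted p for Slc25a13 and Gpd1 and 14 for Gpd2, since DESeq2 gave none for these 3 and the minimum of 10 reads left out Slc25a13 and Gpd1. Genes called higher in rods numbered 4 with the replicate block, and 0 to 4 with a library left out. Genes called lower in rods numbered 7 with DESeq2, 0 without the variance trend, 17 in 1 fit of all 12 libraries, and 2 to 4 with a library left out. In retina, lower genes numbered 0 with the replicate block or the minimum of 10 reads, 0 to 2 with a library left out, and higher genes 0 to 4. The cause was not tested. Same-numbered libraries of the 2 genotypes did not deviate together (r -0.30 to 0.071, none highest with its own number), so they share only a number. The replicate block that pairs rods with retina changed no member's call in the limma fits.

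Precision is set by 3 libraries a group, and for Slc25a13 and Gpd1 by reads: neither had more than 25 in a rod library or 78 in a retina library, so moderate genotype changes in them were not detectable at this depth.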
